A study of Mus musculus with 26 samples.

Results

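Accessible chromatin was compared directly between C2C12 myotubes transfected with siRNA against the DRR enhancer RNA and C2C12 myotubes transfected with siRNA against the cohesin subunit SMC3. C2C12 is a mouse myoblast line that forms multinucleate myotubes when serum is withdrawn. The comparison used 4 of the 26 samples of the series, all ATAC-seq libraries of myotubes: siDRR (n = 2) and siSmc3 (n = 2). A further pair of control siRNA libraries stood outside the contrast, and SMC3 ChIP-seq and DRR ChIRP-seq lists of the same series served only to mark regions. Cells of every ATAC group had grown in 20% fetal bovine serum and were differentiated in 2% horse serum with insulin, transferrin and selenium. The siRNAs were delivered with RNAiMAX, a lipid reagent that makes a transient transfection and leaves the genome unaltered. The level of DRR RNA or SMC3 left after transfection was not analysed here, and the myotube state was not checked against marker genes, since the peak lists name no genes.

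The DRR is the distal regulatory region upstream of Myod1, a gene for a transcription factor that commits cells to the muscle lineage, and it is transcribed into an enhancer RNA. Cohesin is a ring-shaped complex, with SMC3 as a core subunit, that holds sister chromatids together and extrudes loops of chromatin, and it collects at sites bound by CTCF and at active enhancers. ATAC-seq marks chromatin that a transposase can reach, which in myotubes includes promoters, enhancers and many boundary elements. The direct contrast addresses how accessible chromatin differs between cells transfected with siRNA against the enhancer RNA and cells transfected with siRNA against cohesin.

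Peaks of the 4 libraries on chromosomes 1 to 19 and X that overlapped by 1 bp or more were joined into regions, and a region counted as called in each library with a peak touching it. This gave 196674 regions. The siDRR-only set held the 2368 regions that both siDRR libraries and no siSmc3 library called (1.2% of all regions). The siSmc3-only set, those that both siSmc3 libraries and no siDRR library called, held 3641 regions (1.85%). All 4 libraries called 26571 regions (13.5%). Of the 6009 regions that differed in this sense, 39.4% were siDRR-only. With every list cut to the 69840 best-scoring peaks, the length of the shortest list, the sets held 2585 and 2663 regions and the siDRR-only share was 49.3%. Separate cultures are not named in the labels, so replicate spread here may be technical. In bulk libraries, fewer cells with an open region and a less open region per cell cannot be told apart.

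The lists differed more between replicate numbers than between knockdowns. The siDRR lists held 69840 and 98591 peaks in replicates 1 and 2. The siSmc3 lists held 80896 and 103055 peaks, and the control lists 58137 and 99547. The means were 84215.5 ± 20330 peaks for siDRR and 91975.5 ± 15668.8 for siSmc3 (SD, n = 2 each), a difference of -7760 peaks (two-sided exact permutation p = 0.667, adjusted p = 0.952 over 10 measures). With 2 libraries against 2, the smallest p that this exact permutation test can give is 0.33. The difference changed sign without siDRR replicate 1 (6615.5 peaks) and without siSmc3 replicate 2 (3319.5 peaks).

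Regions unique to the siDRR libraries lay on cohesin sites more often than regions unique to the siSmc3 libraries. Cohesin sites were 13885 intervals called in both SMC3 ChIP-seq libraries of myotubes without a knockdown, a measurement that the rule did not use. Such a site overlapped 288 siDRR-only regions, or 12.2% of them (95% exact Clopper-Pearson interval 10.9 to 13.5), against 164 siSmc3-only regions, or 4.50% (3.85 to 5.23). Intervals cover counting error only. Over all 196674 regions the share was 5.99%, among regions called in at least 2 libraries it was 11.1%, and among regions of all 4 libraries it was 10.3%. The siDRR-only share was thus above that of all regions and near that of regions called more than once, and the siSmc3-only share was below each of these. These shares were not tested over libraries, since each set is defined by all 4 of them.

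The same order held with other cohesin maps and other list lengths. Sites called in both myoblast SMC3 libraries overlapped 16.3% of siDRR-only and 7.31% of siSmc3-only regions. SMC3 sites mapped in siDRR myotubes overlapped 6.33% and 2.33%. With lists of equal length, a myotube SMC3 site overlapped 15.1% of siDRR-only and 5.86% of siSmc3-only regions. Within replicate 1, 5.52% of the 38715 regions called under siDRR and not under siSmc3 (19.7% of all regions) lay on an SMC3 site, against 3.12% of the 49602 called the other way (25.2%). Within replicate 2 the shares were 6.34% of 33763 (17.2%) and 4.26% of 38359 (19.5%).

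The replicate number moved this overlap at least as much as the knockdown did. Regions called in exactly 2 libraries fall into 6 kinds by the pair that calls them. Those shared by siDRR replicate 2 and siSmc3 replicate 2 alone numbered 18197, of which 12.8% lay on an SMC3 site. Those shared by siDRR replicate 1 and siSmc3 replicate 1 alone numbered 1205, of which 2.24% did. The crossed pairs lay between. Regions of siDRR replicate 1 with siSmc3 replicate 2 numbered 1782 with 8.64% on a site, and those of siDRR replicate 2 with siSmc3 replicate 1 numbered 1947 with 8.58%. Regions called in a single library were on an SMC3 site in 1.14% and 5.61% of cases for siDRR replicates 1 and 2, and in 1.01% and 3.89% for siSmc3. The overlap difference between the sets, 7.66 percentage points in favour of siDRR-only, turned to -7.11 points without siDRR replicate 2. It was 0.818 points without siDRR replicate 1, 8.33 without siSmc3 replicate 1 and 12.1 without siSmc3 replicate 2. In each of these the knockdown left with 1 library also contributes every region that only this library calls. What part of the difference between the sets comes from the libraries' own quality was not tested.

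**Figure D1:**
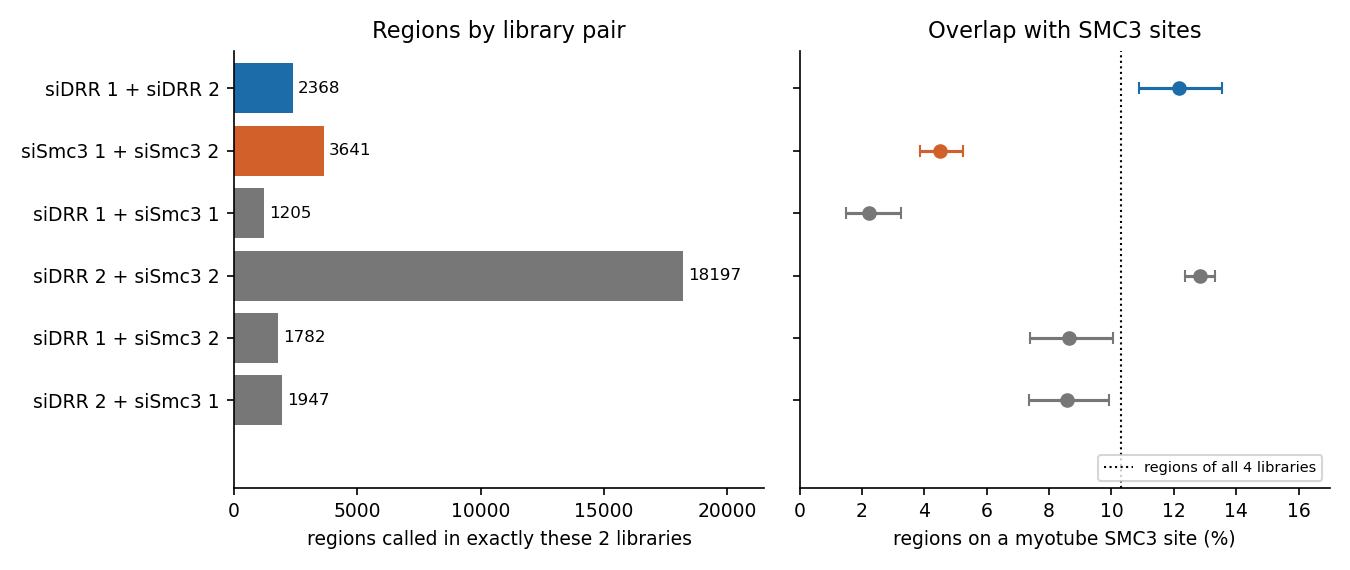
Left, number of regions called in exactly the 2 libraries named, for the 6 possible pairs of siDRR and siSmc3 libraries. Right, percentage of those regions on a myotube SMC3 site (points) with 95% Clopper-Pearson intervals (bars) and the 10.3% of regions called in all 4 libraries (dotted line); the siDRR pair (12.2%) and the replicate 2 pair (12.8%) lie above that line, and the siSmc3 pair (4.50%) and the replicate 1 pair (2.24%) lie below it.

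Sharing by knockdown and sharing by replicate number were set against each other by products of counts in which each library enters once. List lengths cancel in such products only if libraries call regions independently, which was not tested. With lists of equal length the values that follow were -1.02 against same-numbered pairs and 1.77 against crossed pairs. The product of the counts for the siDRR pair and the siSmc3 pair was below that for the same-numbered pairs, by -1.35 on the log2 scale, and above that for the crossed pairs, by 1.31. With the better-scoring 50% of each list, the value against same-numbered pairs was 0.30, and with a minimum score of 50 it was -0.25. The direction among stronger peaks thus depended on how they were chosen.

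Control libraries called a larger share of the siDRR-only than of the siSmc3-only regions. Both control libraries called 416 siDRR-only regions (17.6%) and 209 siSmc3-only regions (5.74%). Neither control library called 1071 siDRR-only regions (45.2%) and 2128 siSmc3-only regions (58.4%). Of all 196674 regions, 59.9% were called in neither control and 19.2% in both. The siSmc3-only share in neither control was thus near that of all regions, and the siDRR-only share was below it. Both lay above the 19.1% of regions called in at least 2 libraries, of which 47.3% were called in both controls. Among regions of the crossed pairs, 58.5% and 59.0% were in neither control, close to the siSmc3-only share. Those of the same-numbered pairs stood at 80.5% for replicate 1 and 28.5% for replicate 2. Of the regions that a single control library called, control replicate 2, the longer control list, supplied 779 siDRR-only and 1144 siSmc3-only regions, and control replicate 1 supplied 102 and 160. Regions of all 4 libraries were called in both controls in 22555 of 26571 cases. The order held with lists of equal length, where 25.7% of siDRR-only and 41.6% of siSmc3-only regions were called in neither control, and with the better-scoring 50%, at 6.27% and 23.7%. It was the other way round without siDRR replicate 1 (71.8% and 55.7%) and without siDRR replicate 2 (89.1% and 28.8%), where the set of siDRR admits the regions of a lone library.

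Overlap with cohesin sites differed between the sets whatever the controls called. Among regions in neither control, a myotube SMC3 site overlapped 10.8% of siDRR-only (9.03 to 12.8) and 3.81% of siSmc3-only regions (3.03 to 4.71). Among regions in 1 control the shares were 13.7% (11.5 to 16.2) and 5.37% (4.21 to 6.73). Among regions in both controls they were 12.3% (9.27 to 15.8) and 6.22% (3.35 to 10.4), so there the intervals overlapped.

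**Figure D2:**
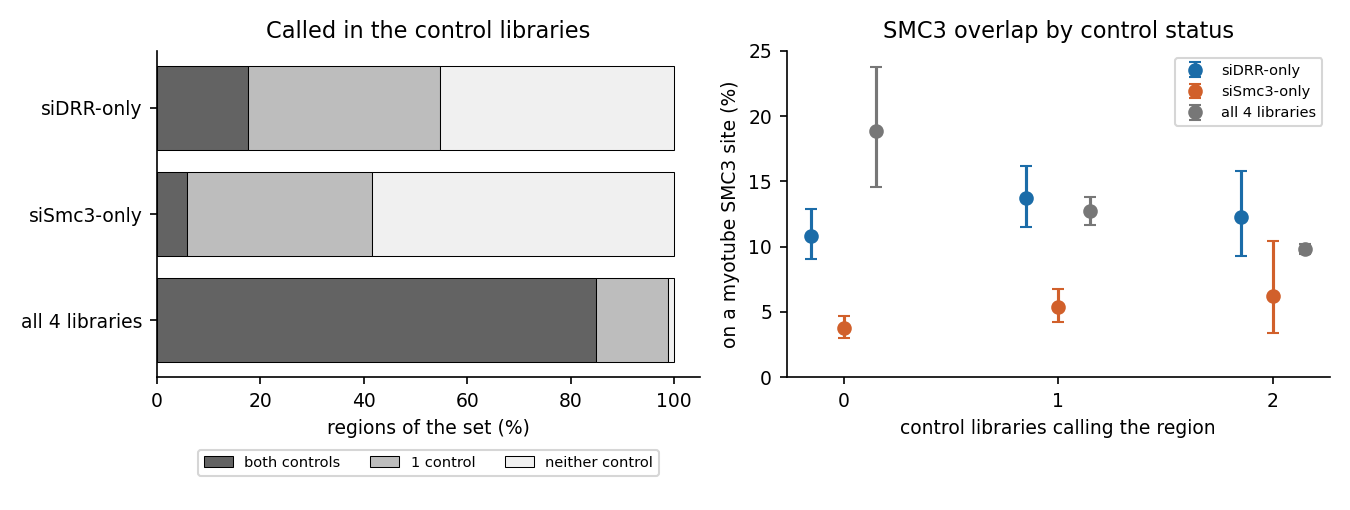
Left, percentage of siDRR-only regions, siSmc3-only regions and regions of all 4 libraries called in both, 1 or neither control ATAC library. Right, percentage on a myotube SMC3 site by the number of control libraries that call the region, with 95% Clopper-Pearson intervals; the siDRR-only points lie between 10.8% and 13.7% and the siSmc3-only points between 3.81% and 6.22%.

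Regions of both sets were weak and narrow next to those that all 4 libraries shared. A peak's rank percentile gives its place by deposited score within one library's list, on a scale where 100 is the best. A region was given the percentile of the highest-scoring peak in it. The mean percentile over the calling lists had a median of 37.2 among siDRR-only and 40.2 among siSmc3-only regions. Median widths were 625 and 653 bp, against 1346 bp for regions of all 4 libraries. Regions called in exactly the other pairs of libraries were as narrow, with medians of 608.5 to 652 bp, and their median percentiles in the calling lists were 28.5 to 45.5, so this trait was not particular to the 2 sets. Above a percentile of 50 in both calling lists lay 291 siDRR-only regions (12.3%) and 659 siSmc3-only regions (18.1%). Of these stronger regions, 12.0% of the siDRR-only (8.52 to 16.3) and 2.73% of the siSmc3-only (1.63 to 4.28) were on an SMC3 site. Neither control library called 32 of these 291 siDRR-only and 244 of these 659 siSmc3-only regions. At any rank, neither control called 59.9% of all regions and 19.1% of regions called in at least 2 libraries. The share over all regions of like rank was not computed.

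The cohesin difference was present at like rank and at like width. In the 4 bins of 20 places from the weakest up to a percentile of 80, SMC3 sites overlapped 8.43%, 12.3%, 14.1% and 10.4% of siDRR-only regions. In the same bins they overlapped 3.23%, 5.30%, 5.08% and 2.60% of siSmc3-only regions. Above a percentile of 80 there were only 6 siDRR-only regions, 0 of them on a site, and 58 siSmc3-only regions with 1.72% on a site. Among regions of up to 500 bp the shares were 13.5% and 4.04%. Among regions over 1500 bp they were 20.9% of 43 siDRR-only and 8.45% of 71 siSmc3-only regions.

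**Figure D3:**
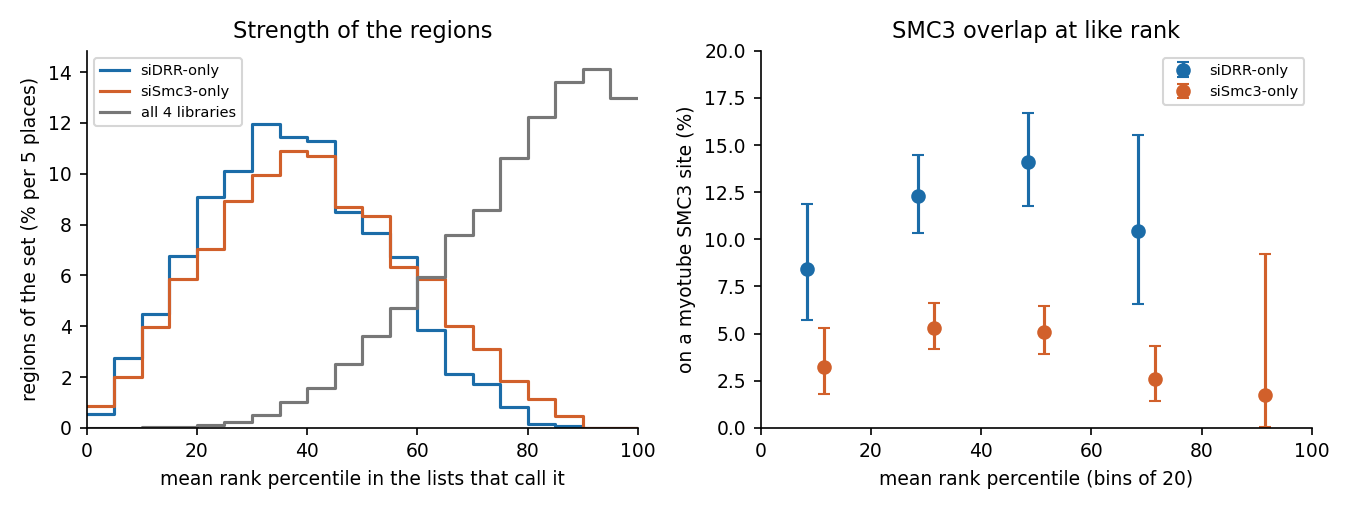
Left, distribution of the mean rank percentile (100 is the best-scoring peak of a list) for siDRR-only regions, siSmc3-only regions and regions of all 4 libraries, in percent of each set per 5 places; the first 2 peak near their medians of 37.2 and 40.2. Right, percentage of regions on a myotube SMC3 site by bin of 20 places, with 95% Clopper-Pearson intervals, for bins of at least 20 regions; siDRR-only is above siSmc3-only in each of the 4 bins that hold both sets.

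At the cohesin sites themselves, siDRR lists held peaks slightly more often than siSmc3 lists, by far less than the spread between replicates. Of the 13885 myotube SMC3 sites, 34.3% and 63.2% carried a peak in siDRR replicates 1 and 2. In siSmc3 replicates 1 and 2 the values were 30.1% and 60.4%, and in the controls 28.1% and 53.7%. Replicate 1 was low and replicate 2 high in every group, so the siDRR and siSmc3 values overlapped (p = 0.667, two-sided exact permutation test, adjusted p = 0.952). Within each number siDRR exceeded siSmc3, by 4.19 and 2.84 points. Each siSmc3 library also exceeded the control library of its number, by less than the spread between replicates.

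With lists of equal length the order of siDRR and siSmc3 was the same and their gap within a number was wider. The siDRR libraries then had a peak on 34.3% and 52.7% of SMC3 sites, against 28.1% and 47.2% for siSmc3 (p = 0.667, two-sided exact permutation test). The controls stood at 28.1% and 43.1%, with control replicate 1 left at its 58137 peaks. The siSmc3 library of replicate 1 thus no longer exceeded its control, and that of replicate 2 still did. Seen from the peaks, 7.50% and 11.3% of siDRR peaks lay on an SMC3 site, against 6.14% and 9.99% of siSmc3 peaks.

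SMC3 sites could also be divided by whether SMC3 was still called under siDRR. The 2 groups that follow do not cover all 13885 sites, and the rest were left out of this split. A missing call does not show that SMC3 was absent. At the 7142 sites called in both SMC3 libraries of siDRR myotubes as well, 35.6% and 67.2% carried an ATAC peak in the siDRR libraries, 30.8% and 64.7% in the siSmc3 libraries and 28.1% and 57.1% in the controls. At the 895 sites that neither SMC3 library of siDRR myotubes called, the values were 24.2% and 43.8% in siDRR libraries, 23.1% and 40.6% in siSmc3 libraries, and 25.5% and 37.0% in controls. Sites that had lost their SMC3 call under siDRR were thus accessible less often than kept sites in all 6 libraries, also in those without siDRR. The gap between siDRR and siSmc3 at these sites, 1.1 and 3.2 points within replicates 1 and 2, was smaller than the spread between replicates.

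**Figure D4:**
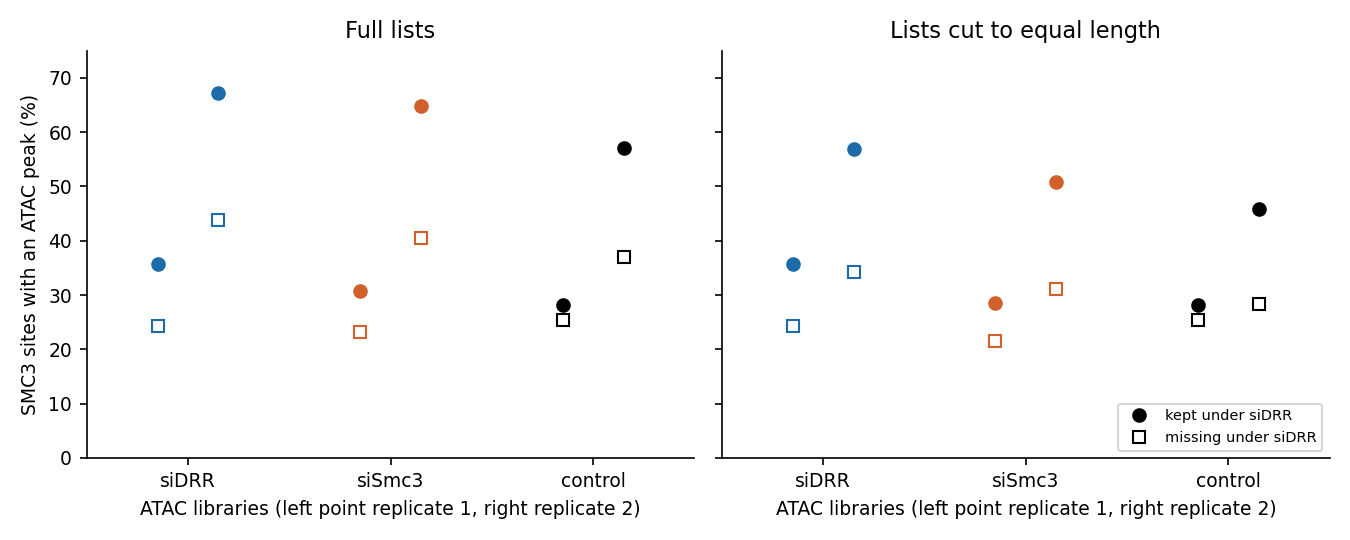
Percentage of myotube SMC3 sites with an ATAC peak in each siDRR, siSmc3 and control library, for sites at which the SMC3 call was kept (filled circles) or missing (open squares) in siDRR myotubes. Left, full lists; right, lists cut to 69840 peaks, with control replicate 1 left at its 58137; replicate 2 lies above replicate 1 in every group, and kept sites lie above missing sites in every library.

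The share of regions touched by a DRR ChIRP window was similar in the sets, with overlapping intervals. In ChIRP-seq, probes against an RNA recover the chromatin bound to it, and a region counted as marked where a summit window of either probe pool touched it. Such a window touched 110 siDRR-only regions, or 4.65% (3.83 to 5.57), and 207 siSmc3-only regions, or 5.69% (4.96 to 6.49). The share was 5.11% over all 196674 regions, between those of the sets. It was 7.54% over regions called in at least 2 libraries and 10.5% over regions of all 4 libraries, above both sets. With lists of equal length the order of the sets turned round, at 5.88% of siDRR-only and 5.33% of siSmc3-only regions. ChIRP regions found by both pools touched 4 siDRR-only regions (0.169%), 5 siSmc3-only regions (0.137%) and 66 regions of all 4 libraries (0.248%). The share was 0.100% over all regions and 0.163% over regions called in at least 2 libraries, so both sets were near these.

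Regions open in all 4 libraries could be compared by their order of strength. Each library ranked the same 26571 regions by score, and places are given in percent of them. Spearman correlations of these ranks across the regions, which share their sequence and width and are not independent, were 0.82 between the siDRR libraries and 0.71 between the siSmc3 libraries. They were 0.80 between the replicate 2 libraries of the knockdowns, 0.66 between the replicate 1 libraries, 0.72 between siDRR replicate 1 and siSmc3 replicate 2, and 0.66 between siDRR replicate 2 and siSmc3 replicate 1. The order in siSmc3 replicate 2 was thus closer to that in either siDRR library than to that in siSmc3 replicate 1, and the ranks did not separate the libraries by knockdown. A siDRR library ranked a region over 20 places above each siSmc3 library, in all 4 pairings, at 656 regions (2.47%). The opposite held at 910 regions (3.42%).

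The 2 groups of shifted regions differed in their control calls, and in their cohesin overlap only at large shifts. Both controls called 93.9% of the regions ranked higher under siDRR and 68.4% of those ranked higher under siSmc3, beside 84.9% of all 26571. Myotube SMC3 sites overlapped 9.15% and 4.84% of them, beside 10.3% of all. Among the 5532 regions ranked higher under siDRR by any amount in all 4 pairings (20.8%), and the 5119 ranked higher under siSmc3 (19.3%), the overlap was 9.65% and 9.34%. The difference of 4.31 points at shifts of over 20 places was -3.09 points without siSmc3 replicate 2, and between 2.97 and 5.26 points without each of the other 3 libraries. Over all 2735 of the shared regions that lay on an SMC3 site, the median difference in place, siDRR minus siSmc3, was -0.60 within replicate 1 and 1.1 within replicate 2. It was 2.95 for siDRR replicate 1 with siSmc3 replicate 2, and -2.48 for siDRR replicate 2 with siSmc3 replicate 1. The sign thus went with the siSmc3 library used. Off SMC3 sites the medians of the 4 pairings ran from -0.026 to 0.63.

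The region that ranked furthest above under siDRR lay at chr7:147178912-147180215 (1304 bp), on an SMC3 site of myotubes and of myoblasts. Its places were 84.4 and 79.0 in the siDRR libraries and 7.14 and 16.2 in the siSmc3 libraries, a gap that the choice of the region fixes. Its list percentiles in the controls were 84.7 and 96.1, near the 94.0 and 94.3 of the siDRR lists. The siSmc3 lists held it at 30.6 and 68.0. List percentiles count all peaks of a list, so they are not on the scale of the places. The region at chr13:29829414-29830644 followed, with places of 86.7 and 95.9 under siDRR and of 1.95 and 28.9 under siSmc3. It carried no SMC3 site, and the controls held it at list percentiles of 85.1 and 97.1. Its list percentiles were 94.9 and 98.9 under siDRR and 9.49 and 76.9 under siSmc3. The next 3, at chr10:68167876-68170720, chr15:95556089-95557392 and chr14:76254840-76255972, were likewise called in both controls, and the chromosome 15 region lay on an SMC3 site that was kept under siDRR.

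The region that ranked furthest above under siSmc3 lay at chr1:57456325-57457745 (1421 bp), off every SMC3 site. Its places were 3.47 and 1.65 in the siDRR libraries and 86.9 and 85.1 in the siSmc3 libraries. Control replicate 1 did not call it, and control replicate 2 held it at a list percentile of 19.5. Its list percentiles were 21.0 and 32.9 under siDRR and 95.7 and 96.1 under siSmc3. At chr11:31648046-31649075 the places were 0.73 and 4.66 under siDRR and 80.2 and 77.4 under siSmc3. As list percentiles, this region stood at 5.29 and 49.9 under siDRR and at 93.4 and 94.1 under siSmc3. The controls held it at 40.2 and 75.5, so control replicate 1 lay within the siDRR range. The regions at chr2:102689771-102690661, chr1:71385387-71386548 and chr13:18888224-18890032 completed the 5, none of them on an SMC3 site, and only the chromosome 2 region was touched by a ChIRP window, of pool 1.

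The siDRR-only regions of highest rank were open in control myotubes too. The first lay at chr15:58118412-58119187 (776 bp), with rank percentiles of 86.2 and 88.7 in the siDRR lists and 70.4 and 81.2 in the control lists. The nearest siSmc3 peak was 7980 bp away. The second, at chr8:64289214-64290156, stood at 76.8 and 95.6 in the siDRR lists and at 68.4 in control replicate 2, while control replicate 1 did not call it. At chr14:55615493-55616783 the percentiles were 80.7 and 82.8 in the siDRR lists and 80.8 and 81.9 in the control lists, so that siDRR and control libraries held the region at almost the same place and both siSmc3 lists lacked it. The fourth, at chr11:119412441-119413242, had percentiles of 82.1 and 80.5 in the siDRR lists and 55.4 in control replicate 2, and was touched by a summit window of each ChIRP pool. At chr3:129338127-129338884 they were 74.8 and 85.9 in the siDRR lists and 34.3 and 69.9 in the control lists. Of the 10 siDRR-only regions of highest mean percentile, 7 were called in both controls and 3 in control replicate 2 alone, and 1 lay on a myotube SMC3 site.

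The siSmc3-only regions of highest rank had fewer control calls. The first lay at chr15:101284879-101286316 (1438 bp), with percentiles of 86.3 and 92.3 in the siSmc3 lists, and control replicate 2 held it at 70.9. It carried an SMC3 site of myoblasts and none of myotubes. The second, at chr16:76782741-76783559, stood at 95 and 82.8 in the siSmc3 lists, and neither control called it. At chr13:73566836-73567818 the percentiles were 90.6 and 86.8 in the siSmc3 lists and 46.1 in control replicate 2. At chr2:124745154-124746543 they were 88.2 and 89.0 in the siSmc3 lists and 58.6 and 38.8 in the controls, well below the siSmc3 places. At chr9:105005932-105006815 they were 82.2 and 94.9 in the siSmc3 lists and 12.2 in control replicate 2. A lower-placed one of the 10, at chr12:9098492-9099535, went the other way. It stood at 87.3 and 88.4 in the siSmc3 lists and at 90.0 and 91.2 in the controls. Of the 10 siSmc3-only regions of highest mean percentile, 2 were called in both controls, 5 in control replicate 2 alone and 3 in neither, and 0 lay on a myotube SMC3 site. These 10 ranged from 87.4 to 89.3 in mean percentile, and the 10 siDRR-only regions from 77.2 to 87.5, so the ranges overlapped at their ends.

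**Figure D5:**
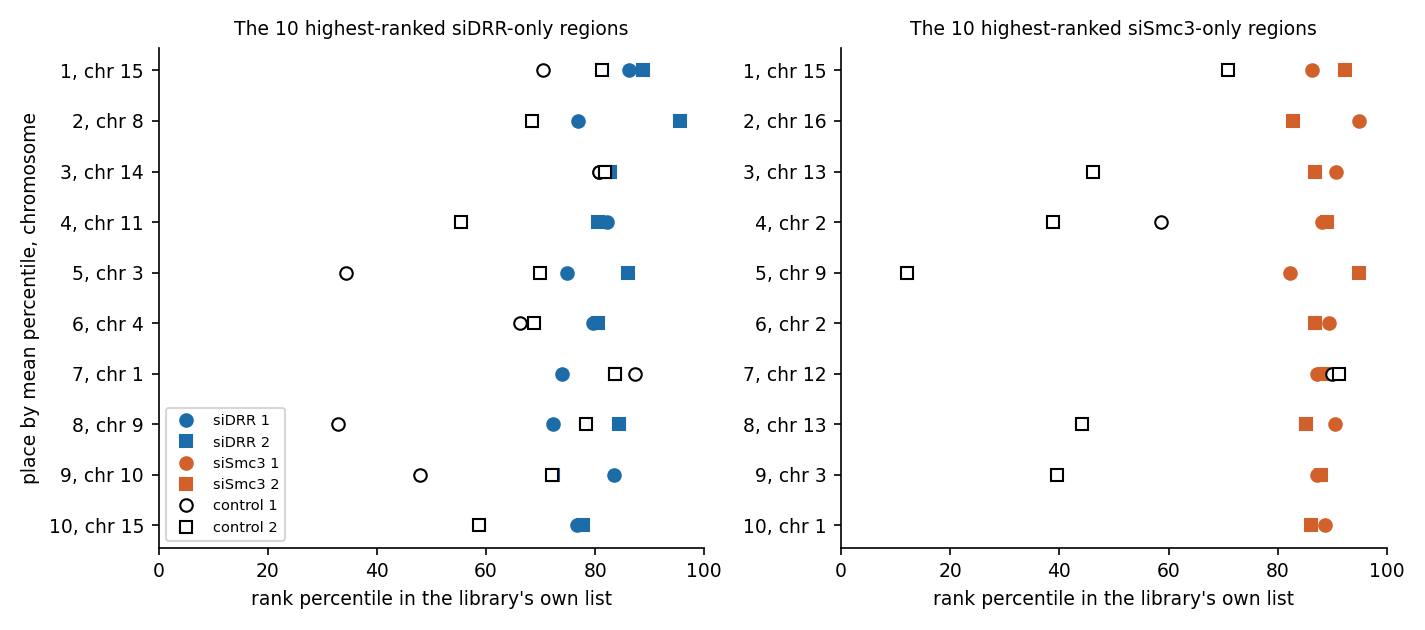
Rank percentile (100 is the best-scoring peak of a list) of the 10 highest-ranked siDRR-only regions, left, and siSmc3-only regions, right, in each list that calls them; circles are replicate 1, squares replicate 2, and open symbols the controls. A control symbol stands in each of the 10 siDRR-only rows, and 3 siSmc3-only rows have none.

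Some cohesin sites that were open in control myotubes kept their peak under siDRR and had none under siSmc3. These were 51 of the 2368 siDRR-only regions, on a myotube SMC3 site and called in both controls. Of the 3641 siSmc3-only regions, 13 were of the same kind. Of the 74206 regions called in at least 2 libraries, 3513 lay on such a site and were called in both controls, a larger share than in either set. The regions named next were chosen after their values were seen. At chr10:25078861-25080640 (1780 bp) the percentiles were 83.5 and 72.3 in the siDRR lists and 47.9 and 72.1 in the controls. The nearest siSmc3 peak was 777 bp away. At chr16:92975159-92975766 they were 75.1 and 70.7 in the siDRR lists and 77.7 and 73.8 in the controls, which is the closest match of siDRR and control among the 3 highest-ranked. In the opposite direction, chr7:143028638-143029242 stood at 72.0 and 61.5 in the siSmc3 lists and at 41.6 and 20.6 in the controls, with no siDRR peak.

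A larger share of siSmc3-only than of siDRR-only regions had a neighbour of their own set within 50 kb. Another region of the same set lay within 50 kb of 418 siDRR-only regions (17.7%) and of 896 siSmc3-only regions (24.6%). The siSmc3-only set is also the larger, with 3641 regions against 2368. The shares were not adjusted for this, so they do not show closer clustering. A region of the opposite set lay within 50 kb of 20.5% of siDRR-only and 14.7% of siSmc3-only regions. Chaining regions with gaps of up to 50 kb left 1950 siDRR-only and 2745 siSmc3-only regions single, and gave 21 and 66 clusters of 3 or more. The largest siDRR-only clusters held 4 regions, among them chr15:41525164-41569994. The largest siSmc3-only cluster held 5 regions over chr15:30566148-30670971, of which 4 were called in neither control and 1 lay on an SMC3 site.

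The sets lay at similar distances from shared accessible regions, and a larger share of siDRR-only regions lay on or within 10 kb of cohesin sites. The median distance to the nearest region of all 4 libraries was 19597.5 bp for siDRR-only and 20157 bp for siSmc3-only regions. A myotube SMC3 site lay within 10 kb of 28.1% of siDRR-only and 21.0% of siSmc3-only regions, beside 26.1% of regions called in other pairs of libraries. The median distance to such a site was 30979.5 and 37181 bp. These values include the 12.2% and 4.50% of regions that overlapped a site, so they are not a trait apart from the overlap. The distances of regions off SMC3 sites were not compared. By chromosome, siDRR-only regions made up from 0.739% (chromosome X) to 1.37% (chromosome 15) of regions, and siSmc3-only regions from 1.15% (chromosome X) to 2.19% (chromosome 8). With full lists, siSmc3-only regions were the more numerous on each of the 20 chromosomes.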

How the data were processed

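The measurements were ATAC-seq peak lists of C2C12 myotubes. Each library had a list of its own, with no pooling of replicates. Each peak carries a score deposited by the authors, whose scale is not stated; it was used only to rank or filter peaks within a list. The lowest score was 30 in every ATAC list used. The submitters' processing notes name mm9, MACS2 and MACS 1.4.2, Bowtie2 2.2.4 and Bowtie 1.1.1, and cutadapt 1.12, bcl2fastq 2.17.1 and CASAVA 1.8.2, with no roles. The sources used here do not give a calling threshold, a background library, read filters or any shift of ATAC reads. The lists hold no read counts, so the sequencing depth is unknown, and list length can rise with depth.

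The mitochondrial peak of each list (1 each) was left out. Starts are given 1-based. SMC3 sites are overlaps called in both libraries of a group; ChIRP summits got 250 bp on either side. No ATAC list repeated another: at most 5 intervals recurred exactly between any pair of ATAC lists. Intervals are 95% Clopper-Pearson (SciPy 1.17.1, with Python 3.11.15, numpy 2.4.6, pandas 2.3.3 and matplotlib 3.10.9). Per-library measures had exact permutation tests with Benjamini-Hochberg adjustment. The merging and marking steps were tested on simulated intervals with known answers.

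Named regions are the 10 of highest mean percentile in each set and the 5 with the largest rank shift each way, by the smallest of the 4 between-group differences. The members and lists were chosen with earlier results of these data known. An annotation or genome of mm9 was not used here, so genes, motifs and sequences of the regions were not analysed here, and neither were the input and LacZ probe samples.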

Additional observations from a re-analysis of the deposited data

How the results depend on the processing

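The siDRR-only and siSmc3-only counts were within 1.5 times of those reported with lists of equal length, 100 bp to merge, a 50% cover to call, and autosomes only. They were 1452 and 1989 with the better-scoring 50% of each list, and 899 and 1173 with a minimum score of 50. The siDRR-only share of the differing regions was 49.3% at equal length, 42.2% with the better-scoring 50%, 43.4% with a minimum score of 50 and 40.8% with 50% cover. Leaving out 1 library gave 2830 to 31512 siDRR-only and 4153 to 40767 siSmc3-only regions and a siDRR-only share of 7.24 to 88.4%, since a knockdown left with 1 library adds the regions of that library alone.

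The difference in SMC3 overlap, 7.66 points, was 7.11 to 10.2 points over the list and merging alternatives. It was 4.0 points with SMC3 sites of siDRR myotubes, and -7.11 to 12.1 points without 1 library. The corresponding difference among rank-shifted regions was -3.09 to 5.26 points without 1 library, a check chosen after the data were seen. The list length difference was -22135.5 to 6615.5 peaks. The log2 ratio of count products, knockdown pairs over pairs of a number, was 0.30 with the better-scoring 50% and -0.25 with a minimum score of 50. Over crossed pairs it was 2.51 and 2.57. Of the 10 named regions in each set, 9 siDRR-only and 8 siSmc3-only stayed under 50% cover, and all 10 of each under the other list, merging and chromosome alternatives.

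Replicate numbers were not taken to pair the libraries: deviations from group means correlated at 0.139 over 196674 regions, with only 2 pairs. The replicate block summed the counts of differing regions within each number. It gave sums of 72478 for siDRR and 87961 for siSmc3, a siDRR share of 45.2%, and an SMC3 difference of 2.28 points. The last was chosen after the data were seen. A region can count once in each number, also in opposite directions, so these sums are not numbers of distinct regions. Alternatives for genes and motifs were not run.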
